A study of Mus musculus with 15 samples.

Results

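The genes described here are the oxygen-sensing prolyl hydroxylases Egln1, Egln2 and Egln3, the hypoxia-inducible factor (HIF) subunits Hif1a, Epas1, Hif3a and Arnt, and Vhl, in mouse choroid plexus and its tumours. They were chosen by name, and a gene was kept where a probe set was paired with its symbol alone. All 8 of 8 listed genes were measured, out of 22180 genes in all, each by the probe set with the highest mean. Egln3 was put on the list because it was higher in both tumour types, so its difference between tumour and normal tissue is described without a test.

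Total RNA from snap-frozen tissue was read on 15 Affymetrix arrays, 5 for each of 3 groups, labelled as biological replicates. The labels do not say whether a sample pooled several mice. All mice were of a mixed C57Bl/6 and 129 background and carried Myc/Myc. Normal choroid plexus came from Myc/Myc; p53fl/fl mice without Cre. Papillomas (benign tumours) came from Atoh1-Cre; Myc/Myc mice, and carcinomas (malignant tumours) from Atoh1-Cre; Myc/Myc; p53fl/fl mice. Cre was driven by Atoh1 in both tumour models, and the floxed p53 allele, present in the normal and carcinoma mice, was not part of the papilloma genotype. Tumours were collected when mice showed signs of disease. Ages were not given. Values are log2 intensities, so 1 unit is a 2-fold difference, and levels of different genes, read by different probes, are not compared with each other. In bulk tissue, fewer cells of a type and less RNA per cell cannot be told apart.

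HIF is a transcription factor made of an oxygen-labile alpha subunit and the stable partner Arnt. With oxygen present, the prolyl hydroxylases, which need iron and 2-oxoglutarate, modify the alpha subunit, and the Vhl ubiquitin ligase then marks it for destruction. When oxygen is short the alpha subunit escapes, pairs with Arnt, binds DNA at sites with the core ACGTG or GCGTG and turns on genes of glycolysis, vessel growth and iron handling. Egln3 and, less strongly, Egln1 are themselves known HIF targets, which makes them part of a feedback loop. This control acts largely on the protein, whereas the arrays measured RNA only.

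The 250 bases before the start of the hydroxylase genes and of Hif3a are printed because these genes are the hydroxylases compared here and the subunit that was higher in carcinoma. They were taken from RefSeq (build GRCm38.p6) and are written 5′ to 3′ on the gene's own strand, here the minus strand for all 4. Capitals mark ACGTG or GCGTG read on either strand, so CACGT and CACGC are also marked. Egln1 lies at chr8:124949255-124949504, Egln2 at chr7:27166803-27167052, Egln3 at chr12:54203875-54204124 and Hif3a at chr7:17062428-17062677.
Egln1: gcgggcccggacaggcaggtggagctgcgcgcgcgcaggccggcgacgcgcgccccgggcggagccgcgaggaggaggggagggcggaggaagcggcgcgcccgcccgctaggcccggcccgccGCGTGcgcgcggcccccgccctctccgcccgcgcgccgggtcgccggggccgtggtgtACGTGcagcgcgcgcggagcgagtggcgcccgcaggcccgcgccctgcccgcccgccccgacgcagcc
Egln2: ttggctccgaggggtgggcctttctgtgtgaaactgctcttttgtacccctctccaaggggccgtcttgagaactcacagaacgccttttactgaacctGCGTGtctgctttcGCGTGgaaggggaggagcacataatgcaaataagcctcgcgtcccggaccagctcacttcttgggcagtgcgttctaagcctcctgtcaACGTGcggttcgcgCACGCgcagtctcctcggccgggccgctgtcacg
Egln3: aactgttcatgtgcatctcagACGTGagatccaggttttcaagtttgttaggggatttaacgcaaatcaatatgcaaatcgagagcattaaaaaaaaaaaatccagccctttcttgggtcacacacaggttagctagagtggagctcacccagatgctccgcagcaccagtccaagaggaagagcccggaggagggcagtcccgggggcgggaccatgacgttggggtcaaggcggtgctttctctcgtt
Hif3a: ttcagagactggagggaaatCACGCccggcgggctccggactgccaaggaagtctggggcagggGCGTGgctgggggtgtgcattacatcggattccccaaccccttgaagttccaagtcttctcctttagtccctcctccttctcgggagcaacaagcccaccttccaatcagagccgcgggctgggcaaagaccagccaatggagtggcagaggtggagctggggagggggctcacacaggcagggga
The Egln3 window held 1 ACGTG and 0 GCGTG. Egln1 held 1 of each, Egln2 held 1 ACGTG and 3 GCGTG, and Hif3a held 0 ACGTG and 2 GCGTG. A second Egln2 start, at chr7:27165729-27165978, had 0 ACGTG and 1 GCGTG in its window. Hif1a held 3 ACGTG, of which an overlapping pair came from 1 CACGTG read on both strands, Arnt held 1 GCGTG, and Vhl held neither. Of all 32851 windows of this length, 16.6% held ACGTG, 28.2% held GCGTG and 38.6% held either. These letters are a description of the windows, not of binding.

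Each array was checked before the results were drawn. The choroid plexus epithelium was present in every array: the mean of 9 measured markers, among them Kl and Otx2, ran from 12.87 to 12.94 in the normal arrays, from 12.47 to 12.73 in the papillomas and from 12.43 to 12.64 in the carcinomas. Myc, the gene named in every genotype, ranged from 7.52 to 7.72 in normal tissue, from 8.07 to 8.45 in the papillomas and from 8.17 to 8.97 in the carcinomas. Normal replicates 2 to 5 held both Xist, the RNA of the inactive X chromosome (10.69 to 12.48), and Y-linked transcripts (mean of Uty, Eif2s3y and Kdm5d 7.72 to 9.74), whereas each tumour array held one kind or the other. Only normal replicate 1, with Xist at 6.35, was free of this, so differences from normal are also given with it as the sole normal array.

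Egln3 (PHD3), the hydroxylase most strongly induced by HIF, was the member that differed by far most from normal tissue. It read 7.74, 7.06, 7.04, 6.38 and 6.93 in the 5 normal arrays, 11.71, 11.88, 11.73, 11.59 and 11.16 in the papillomas, and 11.42, 11.86, 10.86, 12.71 and 13.36 in the carcinomas. No tumour array reached down to the normal range, and the SD of the carcinomas was the largest. Group means were 7.03 ± 0.48, 11.61 ± 0.27 and 12.04 ± 1.0 (SD, n = 5 each). Papilloma exceeded normal by 4.59 (24.0-fold) and carcinoma by 5.01 (32.3-fold), and in both differences Egln3 stood at rank 2 of 22180 genes. With normal replicate 1 alone the differences were 3.88 and 4.30. In normal tissue 4 of 5 arrays were above their own array's median of all probe sets, so Egln3 was close to that median there. RMA may compress values this low, so the sizes of these differences are not exact.

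**Figure D1:**
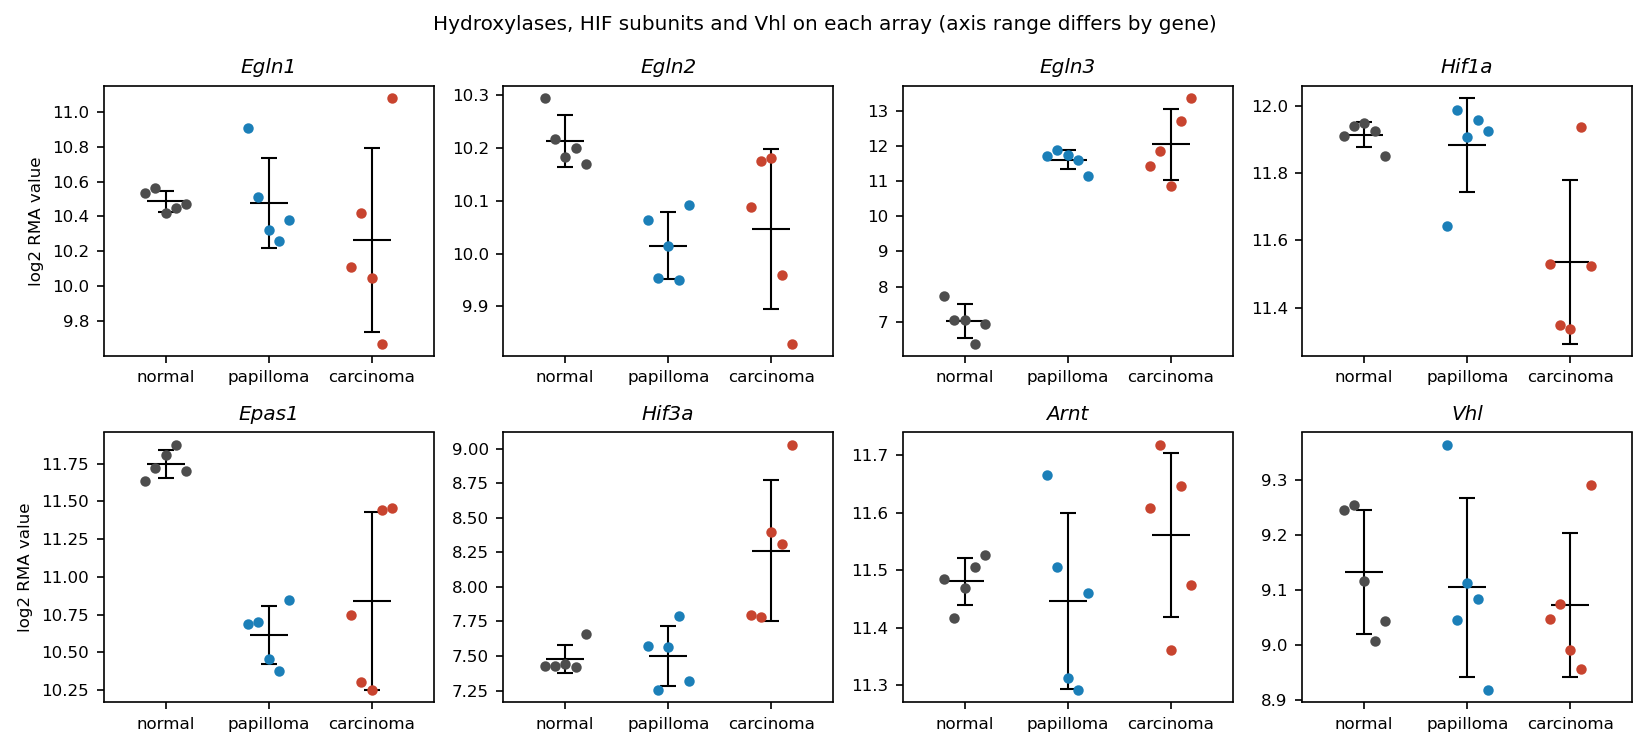
Log2 value (vertical axis, range set per gene) of each of the 8 genes on each array, by group on the horizontal axis, with the mean (wide bar) and SD (error bar) of 5 arrays per group. Egln3 was at 7.74 or below in normal tissue and at 10.86 or above in every tumour, Epas1 was lower in every tumour than in any normal array, and Hif3a was higher in every carcinoma than in any normal array.

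Between the tumour types Egln3 did not pass the test: carcinoma minus papilloma was 0.43 (SE 0.37, 95% interval -0.36 to 1.22, limma adjusted p = 0.534). The groups overlapped. Carcinoma replicates 4 and 5 were above all papillomas and carcinoma replicate 3 was below all of them.

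The other hydroxylases and the HIF subunits were tested in the same fit of all genes. Against normal tissue, 3 of 7 members besides Egln3 passed an adjusted p of 0.05 in carcinoma, where 37.9% of all genes did. In papilloma 2 of 7 did, where 33.2% of all genes did. Between carcinoma and papilloma 2 of 8 did, against 11.4% of all genes. Groups did not overlap for 2 of 7 members in carcinoma against normal (29.9% of all genes), for 2 of 7 in papilloma against normal (32.1%) and for 0 of 8 between the tumours (7.9%). Both tumour comparisons share the normal arrays. With normal replicate 1 as the sole normal array, Epas1 differed by -0.79 in carcinoma and -1.02 in papilloma. Hif3a then differed by 0.83 and Hif1a by -0.37 in carcinoma, and Egln2 by -0.28 in papilloma. No count of calls is given for that setting, since 1 normal array lowers the power. The median difference over all genes was -0.02, 0.01 and -0.03 in the same order.

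**Figure D2:**
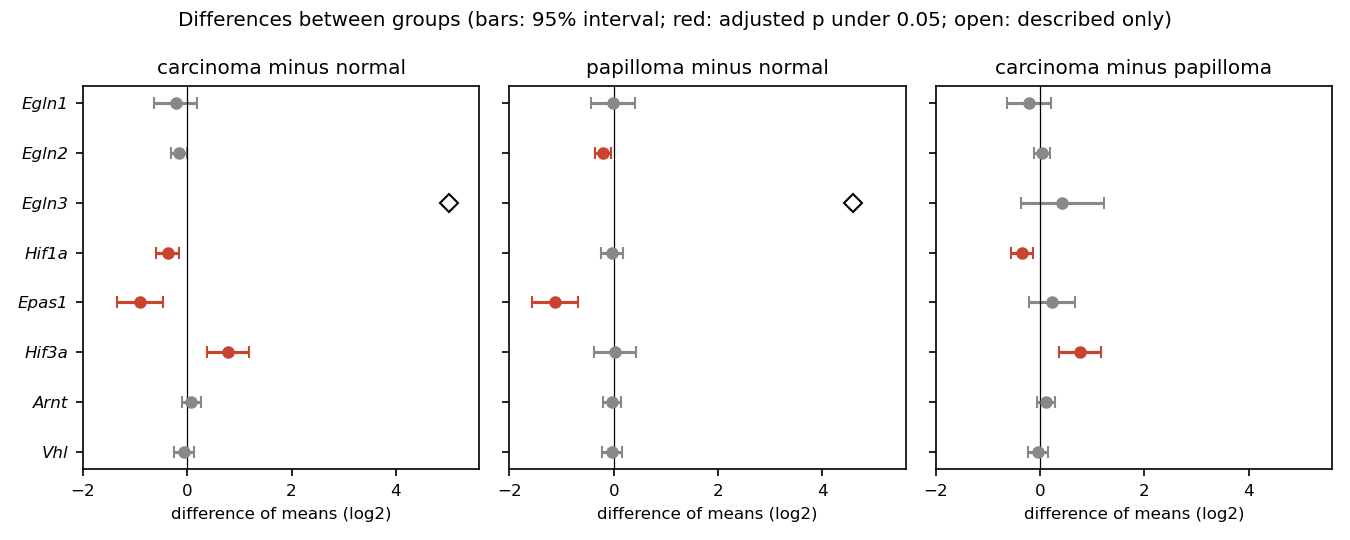
Difference of group means (log2, horizontal axis) for the 8 genes (vertical axis) in each of the 3 comparisons, with 95% intervals. Red points passed an adjusted p of 0.05 and open diamonds are Egln3 against normal, which was described only. Epas1 lies at -0.91 and -1.13 against normal, and Hif3a at 0.79 in carcinoma and 0.02 in papilloma.

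Egln1 (PHD2), the main oxygen sensor for Hif1a, differed little between group means but was uneven among the carcinomas. The normal arrays read 10.54, 10.56, 10.42, 10.45 and 10.47, the papillomas 10.91, 10.51, 10.33, 10.26 and 10.38, and the carcinomas 10.11, 10.42, 10.05, 9.67 and 11.08. All groups overlapped, and the SD was 0.06 in normal tissue, 0.26 in the papillomas and 0.53 in the carcinomas. Carcinoma minus normal was -0.22 (95% interval -0.64 to 0.20, limma adjusted p = 0.422) and papilloma minus normal -0.01 (-0.43 to 0.41, adjusted p = 0.973). Carcinoma minus papilloma was -0.21 (adjusted p = 0.567). Without carcinoma replicate 5, which was the highest of all 15 arrays, carcinoma minus normal was -0.43 and passed (adjusted p = 0.0287).

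Egln2 (PHD1), which hydroxylates the alpha subunits too, was slightly lower in papilloma. It read 10.29, 10.22, 10.18, 10.20 and 10.17 in normal tissue, 10.06, 9.95, 10.01, 9.95 and 10.09 in the papillomas and 10.09, 10.18, 10.18, 9.96 and 9.83 in the carcinomas. All papillomas were below all normal arrays, whereas the carcinomas overlapped with both. Papilloma minus normal was -0.20 (SE 0.07, adjusted p = 0.0476, 1.15-fold) and carcinoma minus normal -0.17 (SE 0.07, adjusted p = 0.0878). Carcinoma minus papilloma was 0.03 (adjusted p = 0.842). Against normal replicate 1 alone the papilloma difference was -0.28 (adjusted p = 0.272). The papilloma call ended without any of normal replicates 1 to 5, papilloma replicates 1 to 4 or carcinoma replicate 1 (adjusted p 0.0576 to 0.104), and with all arrays at a common median (-0.15, adjusted p = 0.141). Without carcinoma replicate 3 the carcinoma difference passed too (-0.20, adjusted p = 0.048).

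Whether the hydroxylases had moved apart was asked inside each array with exact two-sided permutation tests, whose smallest possible p is 0.00794. Egln1 minus Egln2 was 0.24 to 0.35 in normal arrays, 0.29 to 0.85 in papillomas and -0.29 to 1.25 in carcinomas. The group differences were 0.19 in papilloma against normal (exact p = 0.0714, 0.107 adjusted over 6 such tests), -0.06 in carcinoma against normal (exact p = 0.897, adjusted 0.897) and -0.24 between the tumours (exact p = 0.429, adjusted 0.514). None passed with all arrays. Without carcinoma replicate 5 the carcinoma differences were -0.31 against normal (adjusted exact p = 0.0357) and -0.50 against papilloma (adjusted exact p = 0.0159).

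Hif1a, the broadly expressed alpha subunit that drives glycolytic genes, was lower in carcinoma. It read 11.91, 11.94, 11.95, 11.92 and 11.85 in normal tissue, 11.64, 11.99, 11.91, 11.96 and 11.92 in the papillomas and 11.53, 11.35, 11.34, 11.94 and 11.52 in the carcinomas. All but 1 carcinoma, replicate 4, were below every normal and papilloma array. Carcinoma minus normal was -0.38 (SE 0.10, adjusted p = 0.00778, 1.30-fold), papilloma minus normal -0.03 (adjusted p = 0.869) and carcinoma minus papilloma -0.35 (SE 0.10, adjusted p = 0.0395). The difference between the tumours lost its call without any 1 of 13 arrays, all but papilloma replicate 1 and carcinoma replicate 4 (adjusted p 0.0503 to 0.0938). It also lost it when only the 10 tumour arrays were fitted (adjusted p = 0.125).

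A second, much dimmer Hif1a probe set pointed the other way. It read 6.92 to 7.45 in normal tissue (7.18 ± 0.19, SD, n = 5), 7.47 to 7.64 in papilloma (7.56 ± 0.07) and 7.38 to 8.01 in carcinoma (7.62 ± 0.29). Its difference was 0.45 in carcinoma (exact permutation p = 0.0238) and 0.39 in papilloma (exact permutation p = 0.00794, the smallest possible). Averaging both probe sets turned the carcinoma difference from -0.38 to 0.04 (adjusted p = 0.838), so the fall holds for the brighter probe set. With normal replicate 1 alone the brighter probe set differed by -0.37 in carcinoma (adjusted p = 0.273).

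Epas1 (HIF-2 alpha), the alpha subunit best known from endothelium and from erythropoietin control, was lower in both tumour types. Normal arrays read 11.63, 11.72, 11.81, 11.87 and 11.70, papillomas 10.69, 10.70, 10.45, 10.38 and 10.85, and carcinomas 10.75, 10.30, 10.25, 11.44 and 11.46. Every tumour was below every normal array, and carcinoma replicates 4 and 5 were closest to normal. Papilloma minus normal was -1.13 (SE 0.21, adjusted p = 0.00043, 2.19-fold) and carcinoma minus normal -0.91 (SE 0.21, adjusted p = 0.00234, 1.88-fold). Carcinoma minus papilloma was 0.23 (95% interval -0.22 to 0.67, adjusted p = 0.559). Of all genes, 15.8% were lower without overlap in papilloma and 15.2% in carcinoma. With normal replicate 1 alone the differences were -1.02 (adjusted p = 0.151) and -0.79 (adjusted p = 0.244).

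The RNA of Epas1 and Hif1a was compared inside each array in the same way. In papilloma Hif1a differed from normal by only -0.03, so there this difference largely repeats that of Epas1. Epas1 minus Hif1a was -0.27 to -0.05 in normal arrays, -1.58 to -0.95 in papillomas and -1.09 to -0.07 in carcinomas. Papilloma was lower than normal by -1.10 (exact permutation p = 0.00794, the smallest possible, adjusted 0.0476), with no overlap. With same-numbered arrays taken as pairs, the adjusted exact p was 0.188, where 5 pairs cannot go below 0.0625. Carcinoma differed by -0.53 from normal and by 0.57 from papilloma (exact permutation p = 0.0397 and adjusted 0.0794 for each), and neither passed after adjustment. With the mean of the Hif1a probe sets in place of the brighter one, carcinoma minus normal was -0.94 (adjusted exact p = 0.0238). Without carcinoma replicate 5, carcinoma minus normal was -0.69 (adjusted exact p = 0.0159).

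Hif3a, whose short forms are known to hold back the other alpha subunits, was higher in carcinoma. It read 7.43, 7.43, 7.44, 7.42 and 7.66 in normal tissue, 7.58, 7.25, 7.57, 7.79 and 7.32 in the papillomas and 7.80, 7.78, 8.40, 8.31 and 9.03 in the carcinomas. All carcinomas were above all normal arrays, and carcinoma replicate 2 lay just inside the papilloma range. Carcinoma minus normal was 0.79 (SE 0.19, adjusted p = 0.00328, 1.72-fold), papilloma minus normal 0.02 (adjusted p = 0.945) and carcinoma minus papilloma 0.76 (SE 0.19, adjusted p = 0.0156, 1.70-fold). The last call ended when only the 10 tumour arrays were fitted (adjusted p = 0.0675). Against normal replicate 1 alone the carcinoma difference was 0.83 (adjusted p = 0.174). The probe set does not tell the short and long forms apart.

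Arnt, the shared partner, and Vhl, the substrate receptor of the ligase, did not pass in any comparison. Arnt ranged from 11.42 to 11.53 in normal tissue, 11.29 to 11.67 in the papillomas and 11.36 to 11.72 in the carcinomas. Its difference was 0.08 in carcinoma (95% interval -0.10 to 0.26, adjusted p = 0.502), -0.03 in papilloma (adjusted p = 0.817) and 0.11 between the tumours (adjusted p = 0.444). Vhl ranged from 9.01 to 9.25, 8.92 to 9.36 and 8.96 to 9.29 in the same order. Its differences were -0.06 (adjusted p = 0.654), -0.03 (adjusted p = 0.864) and -0.03 (adjusted p = 0.870). The groups overlapped in all of these.

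Median expression over whole chromosomes was shifted in several carcinomas, among them the chromosomes of Egln1, Hif1a and Egln3. A shift was the median difference from normal over a chromosome's genes, minus the median over all autosomes of the same array. Over 1036 genes of chromosome 8 it was -0.13, -0.03, -0.07, -0.24 and 0.01 in carcinoma replicates 1 to 5, against 0.00 to 0.02 in papillomas. Carcinoma replicate 4, with the lowest chromosome 8, also had the lowest Egln1, and replicate 5, with the highest, had the highest Egln1. Chromosome 12, with 748 genes measured, stood at -0.14, -0.15, -0.24, -0.03 and -0.04 in the carcinomas, against -0.05 to -0.01 in papillomas. Hif1a was lowest, and Egln3 too, in carcinoma replicate 3, where chromosome 12 was lowest. Other arrays were ordered differently. In replicate 5, with chromosome 12 at -0.04, Hif1a was at -0.39 from its normal mean, and in replicate 4, at -0.03, it was at 0.02. Egln3 was at 4.84 from its normal mean in replicate 2, with chromosome 12 at -0.15, and at 4.39 in replicate 1, at -0.14. The link between members and chromosome shifts was not tested.

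**Figure D3:**
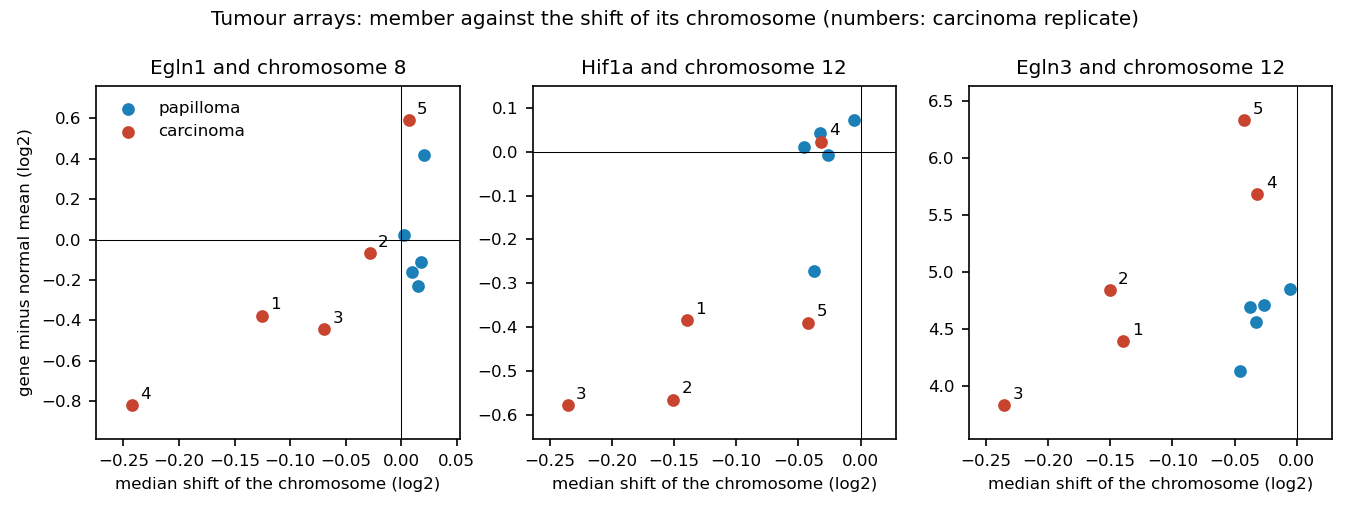
Difference of a gene from its normal mean (log2, vertical axis) against the median shift of its chromosome (log2, horizontal axis) on each tumour array, for Egln1, Hif1a and Egln3, with carcinoma replicates numbered. Carcinoma replicate 4 is lowest for Egln1 and chromosome 8, and replicate 3 is lowest for Hif1a, Egln3 and chromosome 12. Replicate 5 has Hif1a at -0.39 with chromosome 12 at -0.04.

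With the chromosome shift subtracted on each array, Hif1a remained lower in carcinoma than in normal tissue at -0.26 (adjusted p = 0.0288), and its difference from papilloma was -0.26 (adjusted p = 0.0768). Egln1 in carcinoma was then -0.13 and Egln3 5.13. Immediate neighbours did not share the Egln3 difference. Its 10 nearest measured genes ranged from -0.87 for Eapp to 0.97 for Baz1a in carcinoma, with a median of -0.39, and from -0.42 to 0.89 in papilloma. The 10 nearest to Hif1a had a median of -0.26 in carcinoma, from -0.76 to 0.10, and 4 of them were called lower and 0 higher, where 19.2% of all genes were lower. In papilloma, where Hif1a differed by -0.03, the same 10 had a median of -0.18, with 4 lower and 1 higher (16.3% of all genes were lower). Between the tumours 1 was lower and 0 higher.

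The genes whose pattern was most like that of Egln3 are given as a description. Among 17296 genes compared, Pearson's r with Egln3 over the 15 arrays was highest for Rpl32 (0.994), Rpl19 (0.983), Rpl28 (0.982), Ybx3 (0.982) and Arid1b (0.980). These arrays share the group difference that chose Egln3, and ribosomal protein genes have near-identical copies that probes may not separate. Rpl32 read 12.13 to 12.48 in normal tissue, 13.38 to 13.57 in the papillomas and 13.35 to 13.84 in the carcinomas. Within the 10 tumour arrays, with group means removed, r was highest for Tex261 (0.971), Slc15a5 (0.962), Rpl32 (0.954), Gpc6 (0.952) and Alpi (0.952). Slc15a5 and Alpi were below the array median on all arrays.

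Other regulators of HIF were called in both directions. Of 18 measured (21 listed), 2 were higher and 6 lower in carcinoma against normal (median -0.09), and 2 higher and 4 lower in papilloma (median -0.06). Over all genes 18.7% were higher and 19.2% lower in carcinoma, and 17% and 16.3% in papilloma. Usp20, a deubiquitinase that acts on Hif1a protein, rose by 0.67 in carcinoma (adjusted p = 2.1e-06) and 0.85 in papilloma (adjusted p = 2.1e-07). P4htm, a membrane prolyl hydroxylase, fell by 0.69 in carcinoma, Siah1a, a ligase that degrades Egln proteins, fell by 0.55, and Os9, which binds Hif1a and the hydroxylases, fell by 0.52. The elongin partner of Vhl, Eloc, was lower by -0.32 at the edge of the threshold (adjusted p = 0.0437, lost under 12 of 23 alternatives). Cited4, which binds the coactivator p300, was higher by 0.28. In papilloma Nedd8, which activates the cullin ligase, fell by 0.37, Elob by 0.33, Os9 by 0.32 and Siah2 by 0.25. The Siah2 call ended under 13 alternatives.

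Hif1an (FIH), the asparagine hydroxylase that blocks the HIF coactivator contact, was the regulator that separated the tumour types together with P4htm. Carcinoma minus papilloma was -0.69 for Hif1an (adjusted p = 0.0088) and -0.75 for P4htm (adjusted p = 0.0027), the only calls among the 18 regulators in that comparison (0 higher, 2 lower, median 0.05). Against normal tissue Hif1an was higher by 0.43 in papilloma (adjusted p = 0.0454), a call that ended under 10 alternatives. Over all genes 6.24% were higher and 5.17% lower between the tumours.

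The other hydroxylases that need 2-oxoglutarate moved in both directions. Hif1an and P4htm are on this list and on that of HIF regulators, so their calls are counted in both. Of 17 measured (20 listed), 5 were higher and 5 lower in carcinoma (median 0.12), 5 higher and 2 lower in papilloma (median 0.23), and 3 higher and 5 lower between the tumours (median -0.07). The shares called were 58.8%, 41.2% and 47.1%, beside 37.9%, 33.2% and 11.4% of all genes. Among the higher ones in carcinoma were P4ha2 by 1.16 (adjusted p = 0.00018), P3h1 by 0.63 and Plod1 by 0.62, which modify collagen, and the ribosomal oxygenase Riox1 by 0.34. Another collagen enzyme, P3h2, named after its values were seen, was lower there by -0.62 (adjusted p = 0.022), and P3h3, P4ha1, P4ha3 and Plod2 did not pass. Bbox1, which completes carnitine synthesis, fell by 1.08 in carcinoma and 1.01 in papilloma, but it was below the array median on every tumour array, so these sizes are not exact. Phyh, a peroxisomal enzyme of branched fatty acids, fell by 0.75 in carcinoma and was lower than in papilloma by -1.06. In papilloma Tmlhe, which starts carnitine synthesis, was higher by 0.74, Riox1 by 0.50 and Ogfod1, a ribosomal protein hydroxylase, by 0.43, while P3h3 fell by 0.49. Between the tumours P3h2 was at -0.90, Plod1 at 0.81 and P4ha2 at 0.79.

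Among 16 measured relatives of the HIF subunits in the bHLH-PAS family (18 listed), 1 was higher and 6 lower in carcinoma (median -0.12), 1 higher and 3 lower in papilloma (median 0.05), and 1 higher and 2 lower between the tumours (median -0.09). These are 43.8%, 25% and 18.8% of the list, beside 37.9%, 33.2% and 11.4% of all genes. The clock gene Npas2 fell by 1.53 in carcinoma and 1.80 in papilloma, and the dioxin receptor Ahr, another partner of Arnt, by 1.01 and 1.08. Clock fell by 0.59 and 0.40, and Npas3 by 0.54 in carcinoma. Arntl (Bmal1), the partner of Clock, rose by 1.15 in carcinoma (adjusted p = 0.0005) and exceeded papilloma by 1.02 (adjusted p = 0.0065). Arnt2, the neural counterpart of Arnt, was higher in papilloma by 0.34. Between the tumours Npas3 was at -0.57 and Per3 at -0.55, and the Npas3 call ended under 11 alternatives.

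Many genes that HIF is known to induce were higher in the tumours. Of 19 measured glycolytic genes (22 listed), 9 were higher and 1 lower in carcinoma (median 0.22), 8 higher and 2 lower in papilloma (median 0.18), and 2 higher and 0 lower between the tumours (median 0.08). The shares called were 52.6%, 52.6% and 10.5%, beside 37.9%, 33.2% and 11.4% of all genes. Hk2, the inducible hexokinase, rose by 2.03 in carcinoma (adjusted p = 7.3e-05) and 1.71 in papilloma, and Pfkfb3, which drives phosphofructokinase, by 1.49 and 1.11. Ldha, which makes lactate, rose by 0.85 and 0.52, and Pdk1, which closes pyruvate off from mitochondria, by 0.97 in papilloma. The lactate exporter Slc16a3 rose by 0.92 in carcinoma and exceeded papilloma by 0.79, as did Pfkp by 0.36. Eno2, the neuronal enolase, fell by 1.10 in carcinoma and 1.33 in papilloma, and Pfkfb4 was lower by -0.45 in papilloma (adjusted p just under 0.05, a call that ended under 14 alternatives).

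Of 34 measured HIF-induced genes outside glycolysis (38 listed), 23 were higher and 4 lower in carcinoma (median 0.83), 12 higher and 4 lower in papilloma (median 0.24), and 9 higher and 0 lower between the tumours (median 0.38). That is 79.4%, 47.1% and 26.5% of the list called, against 37.9%, 33.2% and 11.4% of all genes. P4ha1, P4ha2 and Plod2 are on this list and on that of hydroxylases. Ak4, a mitochondrial adenylate kinase, and Apln, a vessel-active peptide, rose in both tumour types, Ak4 by 2.25 in carcinoma and 2.50 in papilloma and Apln by 3.08 and 2.42. Apln and Adm were below the array median on all normal arrays, so RMA may compress their low values and their differences from normal are not exact. In papilloma Ddit4, an mTORC1 inhibitor, rose by 1.07 and the mitochondrial Fam162a by 1.05. Ndrg1, a stress-response gene, rose by 2.35 in carcinoma and exceeded papilloma by 2.45 (adjusted p = 0.00051). The peptide hormone Adm rose by 2.84 in carcinoma and exceeded papilloma by 2.20. Lox, a collagen cross-linker, and Vegfa, the main vessel growth factor, exceeded papilloma by 2.19 and 1.03. Insig2, a brake on sterol synthesis, fell by 0.99 in carcinoma and 0.97 in papilloma, and the carbonic anhydrase Car12 by 0.79 and 0.76.

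**Figure D4:**
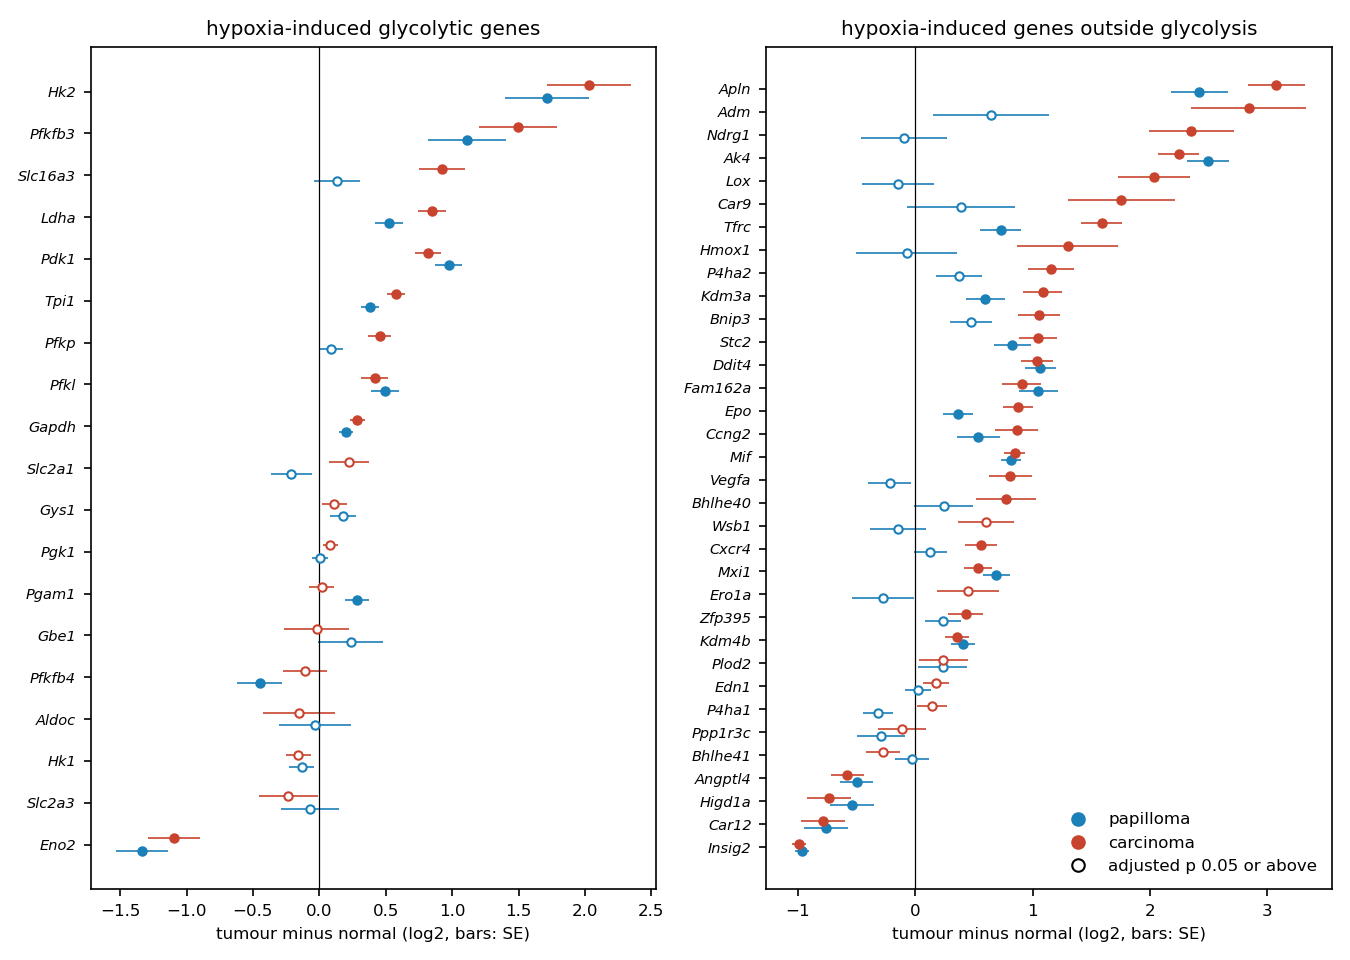
Difference of each tumour type from normal tissue (log2, horizontal axis, bars are SE) for the measured HIF-induced genes of glycolysis (left) and outside it (right), listed on the vertical axis. Filled points passed an adjusted p of 0.05. Apln and Ak4 lie above 2 in both tumours, whereas Ndrg1 is at 2.35 in carcinoma only, and Insig2 and Eno2 are lower in both.

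The level of these lists on each array was set beside the members. The mean of the 34 genes outside glycolysis was 9.01 to 9.14 in normal tissue. It was 9.75, 9.40, 9.23, 9.15 and 9.32 in the papillomas and 9.74, 9.79, 9.64, 9.76 and 10.48 in the carcinomas. Papilloma replicate 1 and carcinoma replicate 5 were the highest of their groups, and the same 2 arrays had the highest Egln1 (10.91 and 11.08) and Vhl (9.36 and 9.29) of theirs. Carcinoma replicate 5 also had the highest Egln3 and Hif3a, whereas papilloma replicate 1 had neither. The glycolytic mean was 10.41 to 10.50 in normal tissue, 10.55 to 10.79 in the papillomas and 10.66 to 11.15 in the carcinomas, highest in the same 2 arrays. Without carcinoma replicate 5, 21 of 34 genes outside glycolysis were still higher in carcinoma than in normal tissue. Without papilloma replicate 1, 13 were higher between the tumours in place of 9, and without carcinoma replicate 3, 14 were. The share of all genes called in these altered fits was not counted, so the changed counts are not read as particular to the list.

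Of the upstream windows of these genes that RefSeq held, 17 of 23 (73.9%) in the glycolytic list and 28 of 38 (73.7%) in the other held ACGTG or GCGTG, against 38.6% of all windows. The share was similar for the HIF regulators (10 of 14, 71.4%) and the bHLH-PAS relatives (10 of 16, 62.5%), and 6 of 14 (42.9%) for the 2-oxoglutarate hydroxylases. Among the cell type lists it ran from 0% for macrophage markers to 42.9% for fibroblast and pericyte markers. Some genes have several windows. Both cores contain CG, and the windows were not matched for base composition, so these shares are a description only.

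Cell type markers differed in how often they were called. Of all genes, 37.9% were called in carcinoma and 33.2% in papilloma against normal tissue. The shares were 64.3% in both for endothelial markers, and 72.7% and 27.3% for neuron and glia markers. They were 75% and 83.3% for fibroblast and pericyte markers, 8.33% and 0% for macrophage markers and 44.4% in both for epithelial markers. Of 14 endothelial markers, 9 were higher and 0 lower in carcinoma and 8 higher and 1 lower in papilloma, while Epas1, which endothelium expresses, was lower in both. Their mean was 8.09 to 8.55 in normal tissue, 8.53 to 8.88 in the papillomas and 8.78 to 9.16 in the carcinomas, and it was lowest among the carcinomas in replicates 4 and 5, where Epas1 was highest. Of 11 measured neuron and glia markers, 8 were lower in carcinoma, where 19.2% of all genes were. In papilloma 3 of 11 were lower, where 16.3% of all genes were, and the share called was below that of all genes. Their means were 8.88 to 9.31 in normal tissue, 7.70 to 9.28 in the papillomas and 7.50 to 8.26 in the carcinomas. Papilloma replicates 2 and 4, at 9.28 and 8.91, were inside the normal range. Fibroblast and pericyte markers, 12 of 12 measured, gave 5 higher and 4 lower in carcinoma and 4 higher and 6 lower in papilloma, and their means were 9.47 to 9.71, 9.04 to 9.26 and 9.37 to 9.66 in normal tissue, papilloma and carcinoma. Of 12 macrophage markers 1 was higher in carcinoma and 0 in papilloma, with means of 7.76 to 8.03, 7.71 to 7.85 and 7.65 to 8.70. Choroid plexus epithelial markers gave 1 higher and 3 lower of 9 in carcinoma and 0 higher and 4 lower in papilloma. Only 2 of 8 red cell markers were measured and 0 passed in either direction. The part of these cell types in the differences of the members and lists was not tested.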

How the data were processed

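Total RNA of 15 mouse tissue samples was measured on 1-colour Affymetrix arrays. Per the submitters' processing notes, the authors used RMA in Affymetrix Expression Console, and the deposited values are log2 RMA intensities per probe set. RMA corrects background, forces the arrays to a shared distribution and summarises probes, which compresses differences of dim probe sets and removes a global change in RNA content. Their genome build was not given in the sources used here. Array medians were 6.79 to 6.90. Arrays have no read depth, and their number limits the precision.

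Of 41345 probe sets, 23521 were paired with 1 gene symbol, and 23328 of these matched the RefSeq gene table (GRCm38.p6). The probe set with the highest mean stood for each of 22180 genes, since 1082 genes had more than 1. Groups came from the sample titles. All 15 arrays entered 1 linear fit on group with limma 3.58.1 in R 4.3.3, and p-values are two-sided, Benjamini-Hochberg adjusted over all genes. It was tested on simulated data. Differences inside an array were compared by exact permutation tests over 252 splits. The members and gene lists were chosen with earlier results of these data known, so no list is independent support. Named genes were all members, the 5 most like Egln3 by each measure, and per list and comparison, up to 4 genes of the main direction plus 2 of the opposite one. Where a list had as many higher as lower, the higher was taken as main. Alternatives covered normalization, the probe set rule, a filter on dim genes, chromosome shifts, the samples fitted and each array left out. Sequences came from RefSeq (GRCm38.p6); windows were searched in Python 3.11.15.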

Additional observations from a re-analysis of the deposited data

Results flagged for a closer look

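Among 24 sets of 5 arrays (8 genes in 3 groups), 2 had a single array far from the others, by a gap of more than 0.71 of the range, which chance gives about 1 set in 20. Hif1a in papilloma replicate 1 was 11.64, with the nearest papilloma at 11.91 and a gap of 0.771 of the range. Hif3a in normal replicate 5 was 7.66, with the nearest normal array at 7.44 and a gap of 0.914 of the range.

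The change from normal tissue differed between the tumour types for a pair of members, by the direct test of carcinoma against papilloma. For Hif1a this was -0.35 (limma adjusted p = 0.0395), with carcinoma lower. For Hif3a it was 0.76 (limma adjusted p = 0.0156), with carcinoma higher.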

How the results depend on the processing

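The limits lie in 15 arrays, in probe sets that cannot separate isoforms, and in the normal arrays that held transcripts of both sexes. With normal replicate 1 as the sole normal array, a choice made after seeing the data in which its spread is assumed to equal that of the tumours, 0 members passed in carcinoma or papilloma against normal, and the calls among the 5 pathway lists were 20 in place of 60 in carcinoma and 14 in place of 42 in papilloma. The tumour comparison holds no normal array, so this setting equals fitting only the 10 tumour arrays there, with 0 members and 12 in place of 20 pathway calls. Fewer arrays alone lower the power.

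Leaving out each array gave 3 to 4 members in carcinoma against normal, 1 to 2 in papilloma against normal and 1 to 2 between the tumours. Pathway calls were then 55 to 60, 36 to 46 and 17 to 27. The share of all genes called in each of these fits was not counted. The papilloma count was 1 with arrays at a common median. The count between the tumours was 1 with quantile normalization, with the mean of probe sets and with chromosome shifts removed. Hif1a in carcinoma reversed with the mean of probe sets, to 0.035. Epas1 minus Hif1a in carcinoma against normal was then -0.94 (adjusted exact p = 0.0238). Leaving out each array gave -0.69 to -0.43 for it, -0.31 to 0.070 for Egln1 minus Egln2 in carcinoma against normal and -0.50 to -0.12 between the tumours.

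Replicate numbers did not pair the samples: residuals of same-numbered arrays correlated at -0.096 to 0.136, above 0.1 in 2 of 15 pairs. With the replicate block, 1 member passed in papilloma against normal and 1 between the tumours, and Epas1 minus Hif1a in papilloma, at -1.10, had an adjusted exact p = 0.188, since 5 pairs cannot go below 0.0625.

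Of 70 calls of named pathway genes, 58 kept their call under each alternative chosen at the start that could be run for them and 12 lost it under at least 1. Bbox1 had no value with dim genes left out. Beside those named in the comparisons, Cited4, Npas3 and Tmlhe against normal lost it without single arrays, and Hif1an, Per3, P4ha2 and Pfkp between the tumours lost it only when just the tumour arrays were fitted.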
